A study of Mus musculus with 6 samples.

Results

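Collagen genes were followed in RNA of macrophages sorted from the omentum and from the mesenteric adipose tissue of mice. They were taken by symbol from the deposited expression table (Col, a type number, the letter a and a chain number), which gave 44 genes of the 23946 in the table. The single other symbol that starts with Col and a digit, Col4a3bp, encodes a lipid transfer protein and was not included. Of the 44 genes, 11 encode chains of fibrillar collagens (types I, II, III, V, XI, XXIV and XXVII), 6 encode the chains of type IV, the basement membrane collagen, and 27 encode chains of other types. All mice were C57BL/6, young adult females by the methods of the study. Macrophages, sorted as CD45+CD11b+F4/80+ cells, were collected from naive mice and from mice 24 h and 7 d after intraperitoneal injection of ID8 cells, a mouse ovarian carcinoma line. Each of the 2 tissues had 1 library at each of the 3 time points, so there were 6 libraries, each taken here as 3 pooled mice from the description of 9 mice in 3 groups. No library of mice injected with vehicle was analysed here, so the injection itself and the cancer cells cannot be told apart.

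Collagens are extracellular matrix proteins whose chains wind around each other into a triple helix. Fibrillar types build the fibers that give connective tissue its tensile strength. Type IV instead forms the sheet-like network of basement membranes, on which mesothelial, endothelial and other lining cells sit. Type VI makes beaded filaments close to cells, and the remaining types decorate fibers, anchor membranes or span the plasma membrane. Fibroblasts are the best known source of fibrillar collagen, while mesothelial cells, which cover the omentum, also make matrix. The omentum holds milky spots, immune cell clusters in which fibroblasts and collagen form part of the frame.

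Expression was deposited as FPKM, fragments scaled to transcript length and to the number of aligned reads, so that levels can be compared between genes. Differences are given as log2(FPKM + 1), a scale that shrinks the differences of weakly expressed genes. The libraries summed to between 526887 and 713863 FPKM. From the commonest ratio of low FPKM values, depth was estimated at 0.853 to 1.48 times that of naive mesentery, but the reads behind a single value are unknown. All 7 macrophage markers found in the table exceeded 1 FPKM in each of the 6 libraries. Ptprc, the gene of CD45, lay between 106 and 208 FPKM. With 1 library per condition there is no replicate check of any single condition, and only the tissues could be tested, across their time points. Fewer cells of a type and less RNA per cell cannot be told apart in these sorted bulk samples.

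The omental libraries held far more collagen RNA than the mesenteric ones. Summed over the 44 genes, collagen FPKM was 189 in naive omentum, 216 at 24 h and 602 at 7 d. In the mesentery the sum was 7.07, 7.28 and 3.77. The omental sums were thus 26.7, 29.6 and 160 times the mesenteric sums at the same time points. Even in the omentum, collagen was a minor share of the RNA, with 0.0304%, 0.0302% and 0.107% of the summed FPKM of the library. A level of 1 FPKM was reached by 14 collagen genes in naive omentum, 14 at 24 h and 18 at 7 d, against 2, 1 and 0 in the mesentery. In all, 20 of the 44 genes reached it in at least 1 library, compared with 54.6% of all genes.

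**Figure D1:**
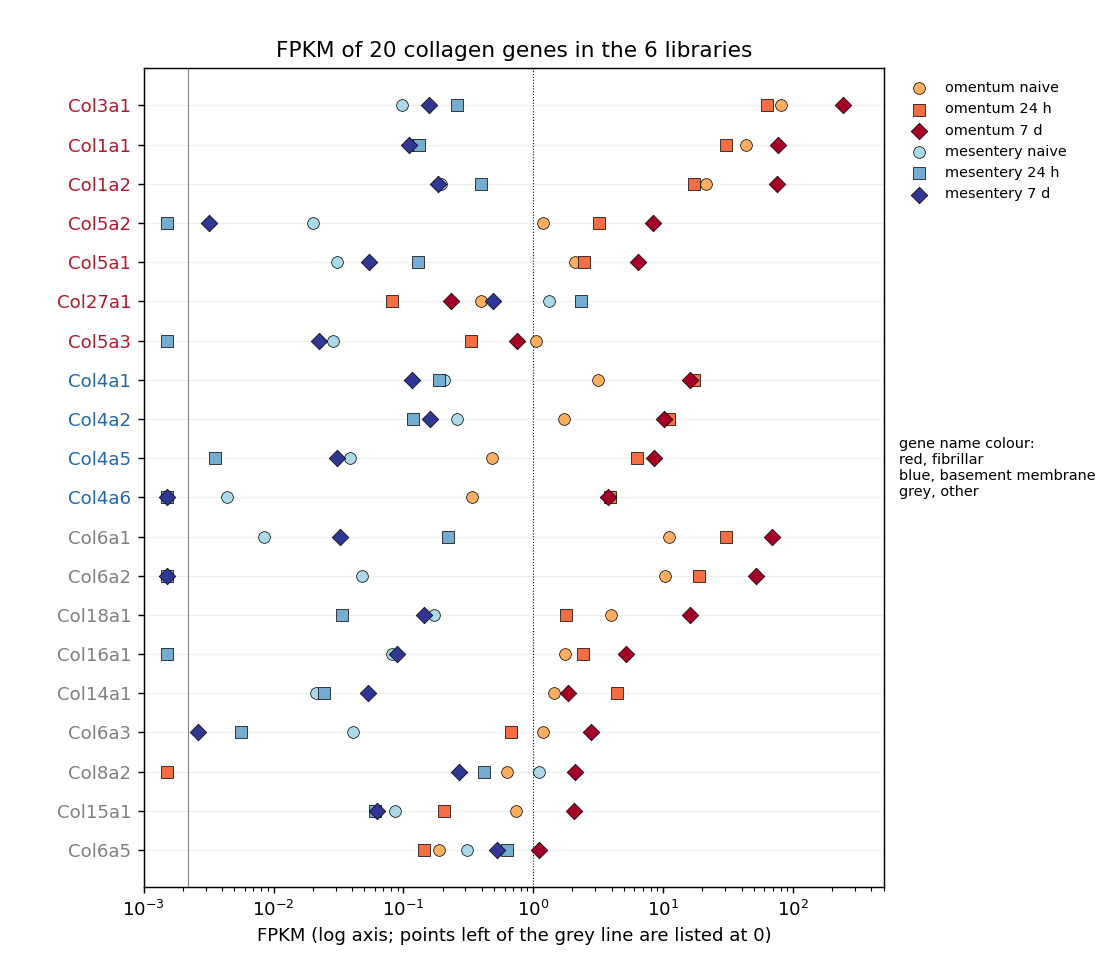
FPKM (log axis) of the 20 collagen genes that reached an FPKM of 1 (dotted line) in at least 1 library, 1 point per library. Omental libraries are in warm colors and mesenteric libraries in blue. For Col3a1, the omental points lie between 62.8 and 242 and the mesenteric points between 0.0973 and 0.256.

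For 20 of the 44 collagen genes every omental library lay above every mesenteric library, a pattern seen in 10.4% of all genes of the table. The reverse was seen for 4 collagen genes (Col9a2, Col10a1, Col11a2 and Col27a1), against 11.8% of all genes. The 20 genes higher in every omental library are not the same 20 that reached 1 FPKM. Col8a1, Col12a1 and Col13a1 were higher but stayed below 1 FPKM. For Col12a1 the lowest omental value was 0.0422 and the highest mesenteric value 0.0321. Col6a5, Col8a2 and Col27a1 reached 1 FPKM but were not higher in every omental library. The tissues were tested with limma on log2(FPKM + 1), with the time point as a block, so that the 3 time points of a tissue stand in for replicates. The p-values therefore measure tissue differences against their variation over time, not against variation between animals. Genes had to reach 1 FPKM somewhere to enter this test, and 20 of the 44 collagen genes did. After Benjamini-Hochberg adjustment over 13064 genes, 12 collagen genes were higher in the omentum (background 5.26%) and 0 were lower (background 4.81%). At an unadjusted p below 0.05 there were 15, all higher, where 29.3% of all tested genes passed in either direction. The filter passes genes through the tissue in which they are high, so this count is a description. Leaving out the 24 h libraries reduced the 12 genes to 3, leaving out the 7 d libraries reduced them to 5, and a pseudocount of 5 reduced them to 5. Col1a1, Col1a2 and Col3a1 passed in each of those fits. When every gene above 0 was entered, 0 collagen genes passed, although 21 had an unadjusted p below 0.05 (22.5% of all genes in that fit), and limma called 7 genes higher and 7 lower in the whole table.

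**Figure D2:**
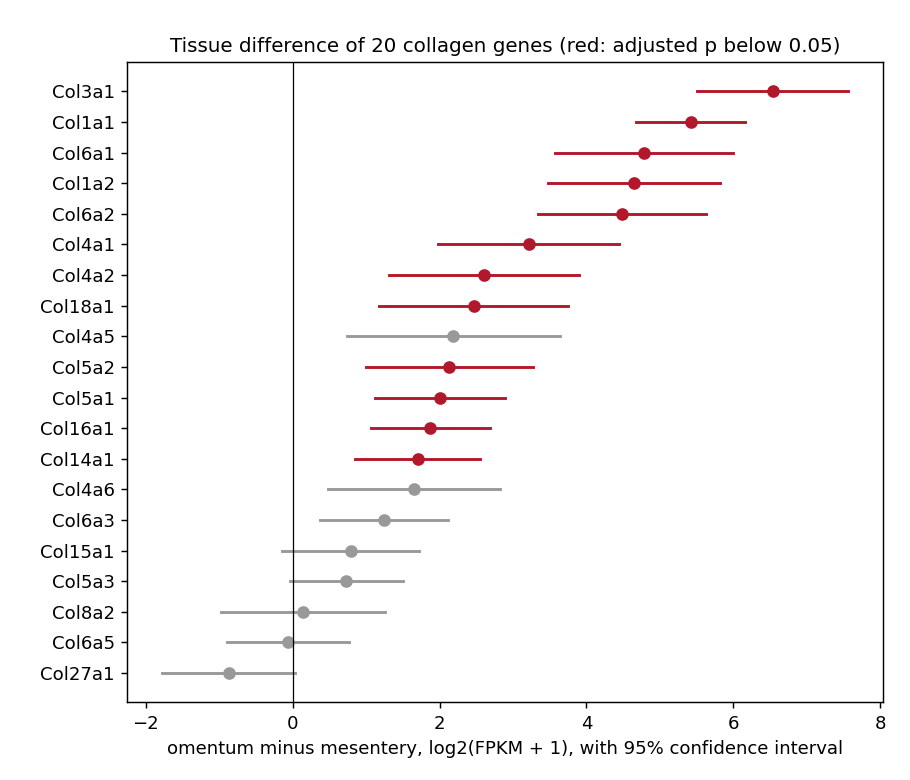
Difference between omentum and mesentery on the log2(FPKM + 1) scale for 20 collagen genes, with the limma estimate over 3 time points (point) and its 95% confidence interval (line). Red marks the 12 genes with an adjusted p below 0.05, which range from 1.70 (Col14a1) to 6.53 (Col3a1).

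Fibrillar collagens made up most of the collagen RNA of the omentum, with 79.7% of the summed collagen FPKM in naive mice, 54.1% at 24 h and 68.1% at 7 d. Col3a1 had the highest FPKM of all collagen genes in each omental library. It encodes the chain of type III collagen, the fiber of loose and reticular connective tissue. Its FPKM was 80.5 in naive omentum, 62.8 at 24 h and 242 at 7 d, and 0.0973, 0.256 and 0.157 in the mesentery. No omental value came near a mesenteric one, and the 7 d library stood highest, where Col3a1 ranked 357 among all genes. The tissue difference was 6.53 ± 0.41 (SE) with an adjusted p of 0.00408 in limma. Col3a1 lies on the plus strand of chromosome 1 of NCBIM37, the mm9 assembly, from 45368383 to 45406551. It is followed tail to tail by Col5a2, from 45431166 to 45560127, with 24614 bases between them. As the leading gene, its promoter is shown. The 250 bases before the RefSeq start site (RefSeq promoter table for GRCm38.p6) matched NCBIM37 exactly once, at chr1:45368133-45368382 on the plus strand, 5′ to 3′, and capitals mark TATAAA.
Col3a1: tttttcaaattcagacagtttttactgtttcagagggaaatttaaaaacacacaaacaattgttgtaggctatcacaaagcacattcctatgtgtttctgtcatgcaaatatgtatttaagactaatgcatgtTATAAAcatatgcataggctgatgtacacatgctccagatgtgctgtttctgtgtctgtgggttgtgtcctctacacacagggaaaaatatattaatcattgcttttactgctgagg
Short motifs were searched on both strands of these windows. The letters TATAAA were found in 12.4% of all 32851 RefSeq promoter windows of this length. The letters CCAAT were found in 33.8%. The letters GGGCGG were found in 32.7%, and read on the opposite strand they can share their last bases with CCAAT. In Col3a1 TATAAA starts 117 bases before the start site, and neither of the other motifs was found. A match is a description of the letters only.

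Type I collagen, the most abundant fiber of skin, tendon and bone, is built from the products of Col1a1 and Col1a2. Col1a1 had an FPKM of 43.7, 30.4 and 77.0 in naive, 24 h and 7 d omentum and of 0.119, 0.132 and 0.11 in the mesentery. Col1a2 had 21.3, 17.3 and 74.6 in the omentum and 0.193, 0.394 and 0.186 in the mesentery. Both were lowest at 24 h and highest at 7 d within the omentum, as was Col3a1, and all mesenteric values stayed below 0.4. The tissue difference of Col1a1 was 5.42 ± 0.29 (SE), adjusted p 0.00368 in limma. That of Col1a2 was 4.64 ± 0.46 (SE), adjusted p 0.00835. The ratio of Col1a1 to Col1a2 was 2.05 in naive omentum, 1.76 at 24 h and 1.03 at 7 d, since Col1a2 was 3.51 times its naive level at 7 d and Col1a1 1.76 times.

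Type V collagen joins type I in mixed fibers and sets their diameter. Col5a1 stood at 2.11, 2.44 and 6.40 FPKM in the omentum and at most 0.130 in the mesentery. Col5a2 stood at 1.19, 3.21 and 8.37 in the omentum and at most 0.0201 in the mesentery. Both were highest in the 7 d omentum, and neither tissue overlapped the other. In limma their tissue differences were 2.0 ± 0.35 (adjusted p 0.0296) and 2.13 ± 0.45 (adjusted p 0.0468, SE). Col5a3 had 1.05, 0.331 and 0.751 FPKM in the omentum and at most 0.0287 in the mesentery, and its difference of 0.73 did not pass (adjusted p 0.187, limma).

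Among the 7 fibrillar genes that reached 1 FPKM, Col27a1 was the one that lay lower in every omental library than in every mesenteric one. It encodes a chain of type XXVII, best known from cartilage. Its FPKM was 0.398, 0.0809 and 0.234 in the omentum and 1.31, 2.32 and 0.488 in the mesentery. The difference of -0.87 ± 0.36 (SE) did not pass (adjusted p 0.183, limma). It was also the one gene of the 20 whose highest value came from a mesenteric library. The other 4 fibrillar genes, Col2a1, Col11a1, Col11a2 and Col24a1, stayed below 1 FPKM in all libraries, and Col11a2 was the highest of them with 0.552 in naive mesentery.

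The basement membrane chains split into those that were present in the omentum and those that were not. Col4a1 and Col4a2 encode the chains of the common type IV network. Col4a1 had an FPKM of 3.12 in naive omentum, 17.2 at 24 h and 15.9 at 7 d, and at most 0.203 in the mesentery. Col4a2 had 1.73, 11.05 and 10.2 in the omentum and at most 0.258 in the mesentery. Unlike the type I and III chains, both stood above their naive level at 24 h. At 7 d Col4a1 and Col4a2 stood at 0.927 and 0.922 times their 24 h level. Their tissue differences were 3.21 ± 0.49 (adjusted p 0.0219) and 2.61 ± 0.51 (adjusted p 0.0398, SE, limma). The genes lie head to head on chromosome 8, Col4a1 on the minus strand from 11198423 to 11312826 and Col4a2 on the plus strand from 11312805 to 11449287. The annotated genes overlap by 22 bases, and the ratio of Col4a1 to Col4a2 was 1.80, 1.55 and 1.56 in the omental libraries. Whether the FPKM calculation used the strand is not given in the sources used here, so reads in the shared bases cannot be assigned to one gene.

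Col4a5 and Col4a6 encode chains found in the basement membranes of smooth muscle and some epithelia. Col4a5 had 0.478, 6.33 and 8.42 FPKM in naive, 24 h and 7 d omentum and at most 0.0388 in the mesentery. Col4a6 had 0.338, 3.88 and 3.78 in the omentum and 0.00439 in naive mesentery, and it was listed at 0 in the other mesenteric libraries. Every omental value was above every mesenteric one, with the naive omentum far below the later time points. At 24 h Col4a5 was 13.2 times and Col4a6 11.5 times its naive omental FPKM, compared with 5.50 for Col4a1 and 6.38 for Col4a2. The tissue differences were 2.19 ± 0.57 (adjusted p 0.0767) and 1.65 ± 0.46 (adjusted p 0.0873, SE, limma), so neither passed. Without the naive libraries both passed in limma (adjusted p 0.0206 and 0.0332), whereas the adjusted p was 0.325 and 0.361 without the 24 h libraries and 0.264 and 0.280 without the 7 d libraries.

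Col4a6 and Col4a5 are also a head to head pair, on chromosome X from 137599946 to 137908619 (minus strand) and from 137909928 to 138123778 (plus strand), with 1308 bases between them. Their promoters are shown because they face each other across this gap and both genes were higher at 24 h. The Col4a6 window is chrX:137908620-137908869 on the minus strand. The Col4a5 window is chrX:137909712-137909927 on the plus strand, printed up to the first annotated exon. Both are 5′ to 3′ in NCBIM37, from the RefSeq promoter table, and capitals mark CCAAT in Col4a5 and GGGCGG, read on the opposite strand, in Col4a6. The CCAAT letters begin 196 bases and the GGGCGG letters of Col4a6 21 bases before the start site, and Col4a5 also holds GGGCGG at 30 bases, past the stretch shown.
Col4a6: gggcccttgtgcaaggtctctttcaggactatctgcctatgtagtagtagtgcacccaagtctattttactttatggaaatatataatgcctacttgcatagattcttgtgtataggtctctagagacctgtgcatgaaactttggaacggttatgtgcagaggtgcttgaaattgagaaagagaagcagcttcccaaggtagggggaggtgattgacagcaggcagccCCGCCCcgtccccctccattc
Col4a5: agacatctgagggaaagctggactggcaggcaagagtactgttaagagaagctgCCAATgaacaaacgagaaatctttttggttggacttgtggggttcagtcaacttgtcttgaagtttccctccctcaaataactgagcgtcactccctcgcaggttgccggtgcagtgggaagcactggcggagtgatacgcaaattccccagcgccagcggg
Of the 20 collagen genes, 17 had an entry in the promoter table, with 19 windows, of which 13 held GGGCGG, 7 held CCAAT and 1 held TATAAA.

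The remaining pair, Col4a3 and Col4a4, lies head to head on chromosome 1 with 71 bases between the genes. Their chains belong to the basement membrane of the kidney glomerulus. Neither exceeded 0.0526 FPKM in any library, so this divergent pair was near 0 in both tissues.

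Type VI collagen, summed over Col6a1, Col6a2 and Col6a3, came to 22.6, 50.04 and 123 FPKM in the omentum, above type I (47.7) at 24 h and below it (152) at 7 d. Col6a1 had 11.1, 30.6 and 68.2 FPKM in naive, 24 h and 7 d omentum and 0.00840, 0.221 and 0.0324 in the mesentery. Col6a2 had 10.3, 18.8 and 51.6 in the omentum and 0.0483 in naive mesentery, and was listed at 0 in the later mesenteric libraries. Both were higher at each later omental time point than at the one before, as were Col4a5, Col5a1, Col5a2 and Col16a1 among the 20 genes. The tissue differences were 4.78 ± 0.48 (adjusted p 0.00845) and 4.48 ± 0.45 (adjusted p 0.00861, SE, limma). Col6a3, whose product completes the type VI trimer, was lower at 1.19, 0.676 and 2.78 FPKM in the omentum and did not pass (1.24 ± 0.35 SE, adjusted p 0.0870, limma). The ratio of Col6a1 to Col6a3 ran from 9.36 in naive omentum to 45.3 at 24 h.

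Col6a5 and Col6a6 encode chains that can take the place of the Col6a3 product. Like Col6a3, both were lowest at 24 h and highest at 7 d within the omentum, but neither was separated between the tissues. Col6a5 had 0.188, 0.145 and 1.11 FPKM in the omentum and 0.311, 0.632 and 0.521 in the mesentery, so the tissues overlapped and the difference was -0.06 (adjusted p 0.918, limma). Col6a6 had 0.0177, 0 and 0.190 in the omentum and at most 0.768 in the mesentery, at 24 h. Col6a4 did not exceed 0.0416.

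Types XV and XVIII are proteoglycan collagens of basement membrane zones, and the end of the Col18a1 product is released as endostatin. Col18a1 had 3.96 FPKM in naive omentum, 1.77 at 24 h and 15.98 at 7 d, against at most 0.171 in the mesentery. Its 7 d level was 9.02 times its 24 h level. Col15a1 had 0.736, 0.204 and 2.05 in the omentum and at most 0.0861 in the mesentery. Both dipped at 24 h like Col1a1 and Col3a1 and unlike the type IV chains. The tissue difference of Col18a1 was 2.47 ± 0.51 (SE, adjusted p 0.0448, limma), while that of Col15a1, 0.79, did not pass (adjusted p 0.222).

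Among the fiber-associated collagens, Col14a1 and Col16a1 were found in the omentum. Col14a1 had 1.45, 4.43 and 1.86 FPKM there and at most 0.0535 in the mesentery. Of the 20 genes it was the only one outside type IV whose highest value was in the 24 h omental library. Col16a1 had 1.77, 2.43 and 5.14 in the omentum and at most 0.0887 in the mesentery. In limma the differences were 1.70 ± 0.34 (adjusted p 0.0404) and 1.88 ± 0.32 (adjusted p 0.0289, SE). Col8a2, a network collagen of the corneal endothelium and vessel walls, overlapped between the tissues with 0.627, 0 and 2.10 in the omentum and 1.10, 0.415 and 0.268 in the mesentery (difference 0.14, adjusted p 0.857, limma).

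The other 24 collagen genes did not reach an FPKM of 1 in any library. They were 4 fibrillar, 2 basement membrane and 18 other chains, and their highest value was the 0.768 of Col6a6. Among these 24, of the chains of cartilage collagens, Col2a1, Col9a1, Col10a1 and Col11a1 stayed below 0.04, while Col9a2 reached 0.276, Col9a3 0.407 and Col11a2 0.552. Col13a1, Col17a1, Col23a1 and Col25a1, which encode transmembrane collagens, had at most 0.701. Col26a1 was listed at 0 in all 6 libraries, and no position for it was found in the annotation used.

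**Figure D3:**
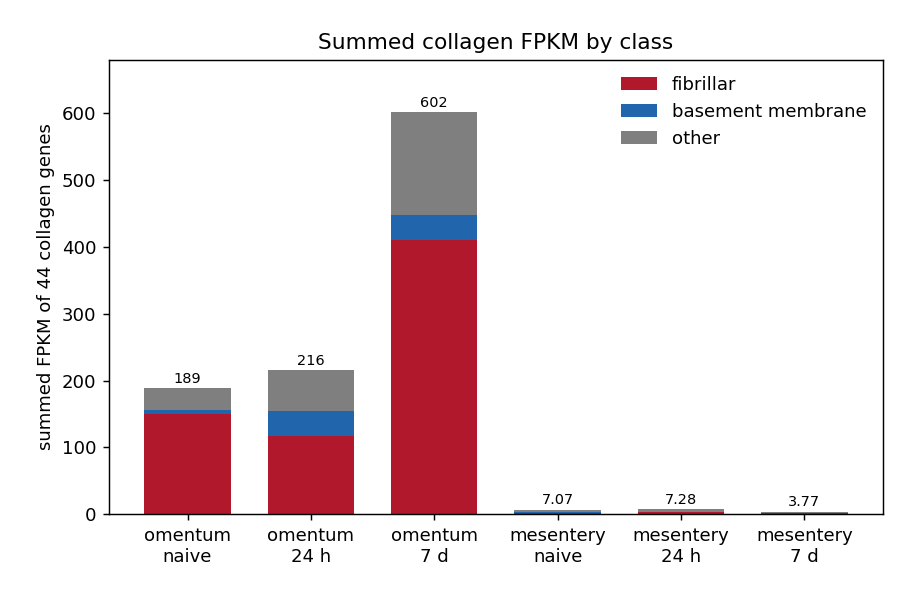
Summed FPKM of the 44 collagen genes in each library, stacked by class (fibrillar, basement membrane, other). The omental sums are 189, 216 and 602, and the mesenteric sums lie between 3.77 and 7.28.

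Within the omentum, type IV genes stood higher than naive at both later times, whereas type I and III genes stood slightly lower at 24 h and higher at 7 d. The counts here are on the log2(FPKM + 1) scale. At 24 h, 6 of the 44 genes were at least 2-fold higher than in naive omentum (6.49% of all genes) and 0 were lower (3.52%). In FPKM itself some genes were more than 2-fold lower, which this scale does not count. Among them Col18a1 stood at 0.447 times its naive omental level, Col5a3 at 0.314 and Col15a1 at 0.277. The 6 higher genes were Col4a1, Col4a2, Col4a5, Col4a6, Col6a1 and Col14a1, with log2 differences of 1.15 (Col14a1) to 2.31 (Col4a5). The type I and III genes differed in the other direction by less than that, with -0.51 for Col1a1, -0.28 for Col1a2 and -0.35 for Col3a1. At 7 d, 12 genes were at least 2-fold higher than in naive omentum (5.98% of all genes) and 0 were lower (1.07%). Among them were the 4 type IV genes again, with 1.84 to 2.67, and Col6a1 (2.52), Col6a2 (2.22), Col5a2 (2.10), Col18a1 (1.77), Col1a2 (1.76) and Col3a1 (1.58), while Col1a1 stood at 0.80. Between 24 h and 7 d, 11 genes were at least 2-fold higher at 7 d (3.83% of all genes) and 0 lower (2.46%), and none of the 6 type IV genes was among them. Over all 44 genes the median difference from naive was 0 at 24 h and 0.18 at 7 d. Summed FPKM of type IV was 5.70 in naive omentum, 38.5 at 24 h and 38.4 at 7 d. For types I and III together it was 145, 111 and 394. Basement membrane chains went from 3.02% of the collagen FPKM to 17.9% at 24 h and 6.39% at 7 d. These are differences between single libraries and were not tested.

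In the mesentery 0 of the 44 genes differed 2-fold from naive at 24 h in either direction, where 1.53% of all genes were higher and 0.831% lower. At 7 d the count was again 0 in both directions, with 0.271% and 1.25% of all genes. The median was -0.02 at both times. With FPKM near 0, a doubling adds little on this scale, so these counts say little about the lowest genes. Naive omentum was at least 2-fold above naive mesentery for 13 of the 44 genes (4.46% of all genes) and below it for 0 (4.39%). At 24 h the counts were 14 higher (7.57%) and 1 lower (5.57%), the latter Col27a1, and at 7 d 17 higher (7.69%) and 0 lower (2.72%). These comparisons share libraries with those over time.

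**Figure D4:**
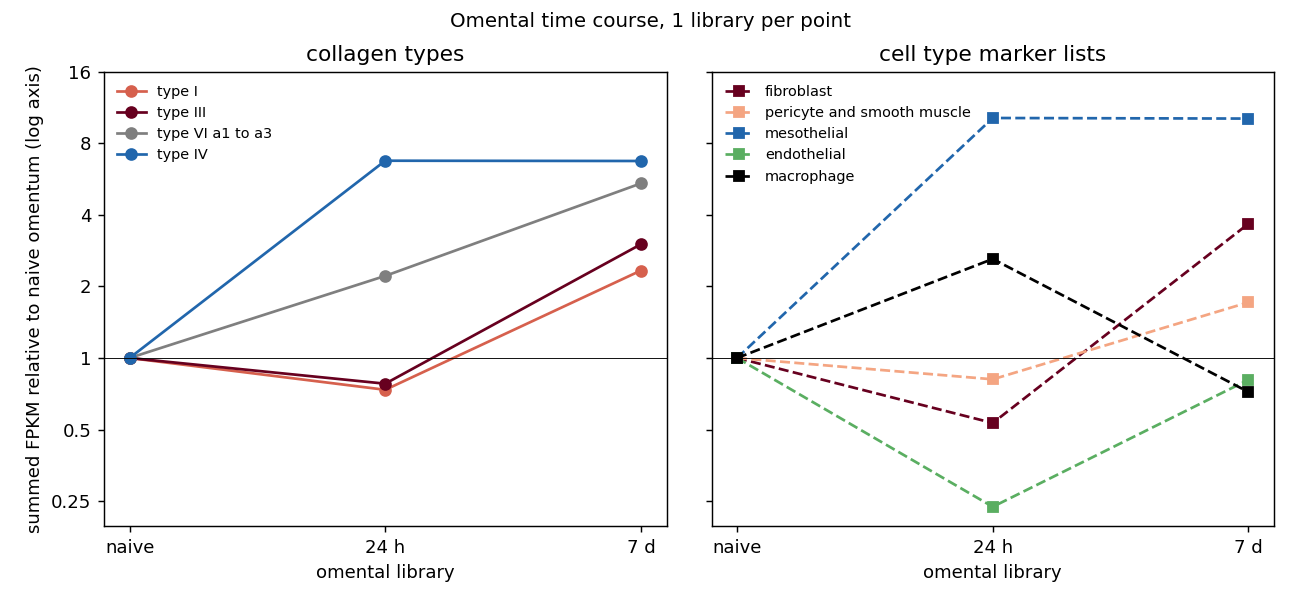
Summed FPKM in the 3 omental libraries relative to naive omentum (log axis), for collagen types (left) and for marker lists of cell types (right), 1 library per point. Type IV reaches 6.76 at 24 h and 6.74 at 7 d, and the mesothelial list 10.2 at both. Types I and III are below 1 at 24 h and above 2 at 7 d, and the fibroblast list goes from 0.533 to 3.67.

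Mesothelial, fibroblast and pericyte and smooth muscle markers were higher in the omentum along with the collagen genes. Of all tested genes, 5.26% passed the tissue test as higher and 4.81% as lower. Every omental library lay above every mesenteric one for 10.4% of all genes, and below for 11.8%. Against these shares, the 0 endothelial and 0 adipocyte markers that passed say little, as only 5 and 3 were tested. No Schwann cell marker was high enough to enter the test. All 8 mesothelial markers were higher in every omental library than in every mesenteric one and passed the tissue test in limma. Their summed FPKM was 99.3 in naive omentum, 1016 at 24 h and 1010 at 7 d, against 0.920 to 1.33 in the mesentery, where 1 or 2 of them were listed at 0 in each library. The list includes Krt8 (19.9, 130 and 111 FPKM in the omentum) and Krt18 (9.60, 145 and 117). The study stained CK8/18 to detect ID8 cells in the omentum. After injection these keratin genes therefore cannot tell mesothelial cells from ID8 cells. The study also stained cancer cells for pan-CK, and Krt19, another keratin gene of the list, had 25.4, 406 and 349 FPKM in the omentum. Whether ID8 cells express Krt19 or the other listed genes was not tested. Upk3b, a defining mesothelial gene, had 23.7, 215 and 259 FPKM in the omentum and at most 0.0682 in the mesentery. Of the 8 fibroblast markers, 7 were higher in every omental library, 5 passed the tissue test as higher and 1, Thy1, which T cells also express, passed as lower. The sum of the 8 was 233, 124 and 855 in the omentum and 12.3 to 21.5 in the mesentery. Most of the mesenteric sum came from Thy1, with 18.3, 8.10 and 9.15 FPKM in naive, 24 h and 7 d mesentery. Dcn, which encodes the collagen-binding proteoglycan decorin, had 189, 109 and 782 FPKM in the omentum and 1.46 to 2.10 in the mesentery. The pericyte and smooth muscle list summed to 25.5, 20.7 and 43.7 in the omentum and 1.99 to 2.64 in the mesentery, with 3 of 6 tested genes higher, Acta2 among them. The endothelial list summed to 43.6, 10.3 and 35.3 in the omentum and 37.0 to 49.4 in the mesentery, mostly from Pecam1, and 0 of its 5 tested genes passed in limma, with 0 at an unadjusted p below 0.05. The adipocyte list summed to 47.6, 14.3 and 63.1 in the omentum and 6.35 to 20.1 in the mesentery. Fabp4 supplied most of it in each library (31.6, 10.2 and 58.3 FPKM in the omentum). The other members, Adipoq, Plin1, Cfd and Lep, were lower at 7 d than in naive omentum. Of the 3 tested adipocyte genes 0 passed (limma, 0 called at an adjusted p below 0.05, 1 at an unadjusted p below 0.05). No Schwann cell marker reached 1 FPKM. The macrophage list summed to 643, 1677 and 462 in the omentum and 465, 759 and 587 in the mesentery. The sum was thus highest at 24 h in both tissues. Ptprc was instead lowest at 24 h in both. It had 182, 106 and 124 FPKM in the omentum and 188, 158 and 208 in the mesentery. Of the 7 tested macrophage genes 1, Itgam, passed as higher in the omentum (adjusted p 0.0125, limma) and 0 as lower, too few to read as a result. At 24 h types I and III were lowest in the omentum but highest in the mesentery, there at a sum of 0.781 FPKM. The part of each of these cell types in the collagen values was not tested.

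Genes that make and process collagen were taken as a list of 35 symbols, of which 30 were in the table. In limma 7 of the 24 tested were higher in the omentum and 0 were lower, where 5.26% and 4.81% of all tested genes were. Every omental library lay above every mesenteric one for 16 of the 30 genes (10.4% of all genes) and below for 4 (11.8%), Adamts14, Loxl3, Colgalt2 and Tll2. Adamts14, which encodes a procollagen protease, had 2.63, 1.70 and 3.11 FPKM in the omentum and 14.9, 7.11 and 3.92 in the mesentery (difference -1.33 ± 0.39 SE, adjusted p 0.0966, limma). Serpinh1, the collagen chaperone HSP47 of the endoplasmic reticulum, had 40.0, 87.3 and 110 FPKM in naive, 24 h and 7 d omentum and 0.775, 0.367 and 0.231 in the mesentery. Pcolce, which enhances the trimming of procollagen ends, had 14.9, 104 and 138 in the omentum and at most 0.461 in the mesentery. Both were higher at each later omental time point, and in the mesentery both stayed below 1. Their tissue differences were 5.68 ± 0.40 (adjusted p 0.00431) and 5.48 ± 0.66 (adjusted p 0.0126, SE, limma). The crosslinking oxidase genes Lox (2.43, 3.83 and 4.26 in the omentum, at most 0.00556 in the mesentery) and Loxl1 (3.67, 6.23 and 12.5, at most 0.0233) passed as well, with adjusted p of 0.0140 and 0.0128 in limma. The others were Plod3, a lysyl hydroxylase, Adamts2, a procollagen protease, and Pcolce2, with differences of 1.65, 2.0 and 1.51. General enzymes of the secretory pathway were present in both tissues. P4hb, which encodes a subunit of prolyl hydroxylase, ran from 129 to 188 FPKM in the mesentery and from 238 to 479 in the omentum. At 24 h, 12 of the 30 genes were at least 2-fold above naive omentum (6.49% of all genes) and 0 below (3.52%). At 7 d the counts were 10 above (5.98%) and 0 below (1.07%). In the mesentery 1 was above at 24 h (1.53%) and 1 below at 7 d (1.25%), counts too small to read as a result.

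Of 11 collagen receptor genes, 8 entered the tissue test. As higher in the omentum 0 passed (5.26% of all tested genes), and as lower 1 passed (4.81%). So small a count cannot be read as a result about the receptors. The gene was Itga2, a collagen-binding integrin chain (difference -1.56 ± 0.32 SE, adjusted p 0.0431, limma). It had 0.738, 0 and 0.593 FPKM in the omentum and 5.17, 2.91 and 1.92 in the mesentery. Lair1, an inhibitory collagen receptor of leukocytes, had 7.88, 53.5 and 14.7 in the omentum and 12.6, 25.6 and 17.4 in the mesentery, with the tissues overlapping. Ddr2, a receptor tyrosine kinase for fibrillar collagen found on mesenchymal cells, had 0.417, 0.514 and 2.11 in the omentum and at most 0.0476 in the mesentery. Mrc1, the macrophage mannose receptor, which also takes up collagen, had 20.8, 50.5 and 7.13 in the omentum and 5.46, 18.5 and 8.60 in the mesentery.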

How the data were processed

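RNA of 6 sorted macrophage samples was sequenced by the authors. The submitters' processing notes name mm9, FastQC 0.11.4 and STAR 2.4.2a, and by the methods Cufflinks turned the alignments into the deposited FPKM table, which holds a row for each symbol and a column for each library. Read counts and fold changes of the study were not used here. The collagen genes and gene lists were chosen with earlier results of these data known. From the FPKM, log2(FPKM + 1) differences were computed with Python 3.11.15, numpy 2.4.6 and pandas 2.3.3, and figures drawn with matplotlib 3.10.9. The tissues were tested with limma 3.58.1 in R 4.3.3, with time point as a block and a mean-variance trend, on the 13064 genes that reached 1 FPKM in any library, and adjusted p-values are Benjamini-Hochberg. The fit was tested on simulated data. All 44 genes are accounted for, and those that reached 1 FPKM are named with their values. A 2-fold difference on the log2(FPKM + 1) scale was counted. The study's methods also used 2-fold, but on DESeq2 fold changes, so the thresholds are not the same. Groups follow the sample titles. The number of reads behind an FPKM limits precision and is unknown. Positions are from GENCODE M1 on NCBIM37, where 43 of 44 genes matched, and promoters from RefSeq. Alternatives were pseudocounts of 0.1 and 5, other filters, 2 rescalings, no block, no trend and each time point left out.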

Additional observations from a re-analysis of the deposited data

Results flagged for a closer look

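Col8a2 differed in direction between the tissues at 7 d. Its log2(FPKM + 1) difference from naive was 0.93 in the omentum and -0.73 in the mesentery. It was the one collagen gene with opposite differences of at least 1.5-fold in both tissues at the same time point, a margin chosen after the values were seen. The values rest on FPKM of at most 2.10, each condition has 1 library, and the difference between the tissues was not tested.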

How the results depend on the processing

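The tissue test paired omentum and mesentery by time point, and without this block 11 collagen genes were called instead of 12. The labels carry no replicate numbers to pair by. Among the recomputed summary values, 86 stayed within 1.5-fold and 27 moved further. The 12 collagen genes called between tissues became 5 with a pseudocount of 5, 0 without a filter, 3 without the 24 h libraries and 5 without the 7 d libraries. Without the 7 d libraries 8 of the 44 genes lay lower in every omental library, in a check chosen after seeing the data. In that check 18.7% of all genes lay lower, so the count is near the share over all genes. With a pseudocount of 0.1, 7 genes were at least 2-fold lower in naive omentum than in naive mesentery, 10 were higher and 7 lower in omentum at 24 h, 19 were higher in omentum at 7 d, 2 were higher and 3 lower in mesentery at 24 h, and 6 were lower in mesentery at 7 d. With a pseudocount of 5, 5 were higher in naive omentum than in naive mesentery. Rescaling to a sum of 1000000 gave 1 lower gene between the naive libraries, 2 lower in omentum at 24 h and 1 lower in mesentery at 7 d. This rescaling moved the median of all expressed genes by -0.20 between the naive tissues, by -0.17 in omentum at 24 h and by 0.13 at 7 d. Over the collagen genes that reached 1 FPKM in either library compared, the median was 1.47 between the naive tissues, 1.58 in omentum at 7 d and -0.68 in mesentery at 7 d. The last median rests on 2 genes only, Col8a2 (-0.73) and Col27a1 (-0.64), and was -0.02 over all 44 genes. An FPKM of at least 5 was reached by 12 genes, and of at least 1 in every library by 0. Without Col3a1, basement membrane chains were 5.27% of the collagen FPKM in naive omentum and 10.7% at 7 d, other chains 30.2% and 42.7%, and fibrillar chains 35.3% at 24 h. With types VII, XV and XVIII counted as basement membrane, that class was 5.55% in naive omentum. The tissue difference changed sign, without passing the test, for Col6a5 without the 24 h libraries (0.16) and for Col8a2 with a pseudocount of 0.1 (-0.17) and without the 7 d libraries (-0.43). Among the single-gene values, 497 kept direction and side of the threshold or stayed within 1.5-fold, 45 lost and 5 gained significance, and 64 moved. Over all genes limma called 687 higher and 629 lower, against 576 and 881 after rescaling to a sum of 1000000. The cause was not tested.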
